A study of Mus musculus with 9 samples.

Results

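Most of the receptors described here let dendritic cells and other white blood cells follow chemical gradients. The genes are 8 chemokine receptors: Ccr7, Ccrl2, Ccr1, Ccr2, Ccr3, Cx3cr1, Cxcr4 and Cxcr2. They were taken by name, as every probe set of the array whose only gene symbol in the platform annotation is 1 of the 8. This gave 13 probe sets for 8 genes, out of 34945 probe sets for 18193 genes. Messenger RNA was measured on 9 Affymetrix mouse arrays, 1 per sample, in cultures from the bone marrow of 129/SvEv mice kept in GM-CSF, the growth factor that drives bone marrow cells toward dendritic cells, for 9 to 12 days. The first group of 3 was wild type and unstimulated (media). The second group of 3 was wild type and received purified DNA of tumor cells, carried in by a lipofection reagent, for 7 h. The third group of 3 carried a STING knockout, of an allele that the labels do not describe, and received the same kind of DNA for the same time. STING is the adaptor that passes on the detection of DNA in the cytosol. Unstimulated knockout cultures, and cultures with the carrier but no DNA, were not analysed here. The DNA and its carrier therefore cannot be told apart, and neither can genotype and stimulation when knockout cells with DNA are set beside wild-type cells in media. Between knockout and wild-type cells that both received DNA, a difference already present without DNA and a difference in the response to it cannot be told apart either. Each group holds arrays numbered 1, 2 and 3. Nothing in the labels ties a number to a mouse or a culture, so the p-values describe only the spread among these arrays, which may be technical.

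Chemokine receptors are seven-helix membrane proteins that couple to inhibitory G proteins and steer the cell toward the source of the ligand. In immature dendritic cells and their precursors, receptors for inflammatory chemokines such as CCR1 and CCR2 guide entry into inflamed tissue, and on maturation CCR7 takes the cells through lymphatic vessels to the lymph node. CCRL2 is an atypical member that binds the attractant chemerin without signalling in the usual way, and it is known as a gene switched on by inflammatory stimuli. CX3CR1, the receptor for fractalkine, marks monocytes and many tissue phagocytes.

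The stretch of DNA before a gene's annotated start is shown for the receptor with the largest rise under tumor DNA and the receptor with the largest fall, since these 2 moved in opposite directions. Both are the 250 bases upstream of the start in RefSeq on GRCm38.p6, on the minus strand, written 5' to 3'. Of the 8 receptors 7 had at least 1 such window, 9 windows in all, and Ccr7 had none in the table used. Ccrl2 has 3 annotated starts, and the window of the most upstream start, chr9:111057519-111057768, is the one printed. The Cx3cr1 window is chr9:120068297-120068546. Capitals mark a match to the NF-kappaB consensus decamer.
Ccrl2: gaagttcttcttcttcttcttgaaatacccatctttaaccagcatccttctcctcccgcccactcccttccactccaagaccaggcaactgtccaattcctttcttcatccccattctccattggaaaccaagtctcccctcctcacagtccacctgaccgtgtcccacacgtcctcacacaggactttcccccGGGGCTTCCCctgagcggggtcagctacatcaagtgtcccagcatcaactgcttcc
Cx3cr1: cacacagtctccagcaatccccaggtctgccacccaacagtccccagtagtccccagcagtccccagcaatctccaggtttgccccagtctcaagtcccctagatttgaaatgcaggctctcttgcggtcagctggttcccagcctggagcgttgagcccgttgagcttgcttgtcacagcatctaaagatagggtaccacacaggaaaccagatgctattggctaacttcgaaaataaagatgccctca
The match in the Ccrl2 window, GGGGCTTCCC, lies 56 to 47 bases before the start. The windows of the other Ccrl2 starts, which lie further downstream, hold no match to any of the motifs searched. Both strands of each window were searched for the NF-kappaB consensus decamer, the core of the interferon-stimulated response element (GAAA, any 2 bases, GAAA), the GAS element TTCNNNGAA and the AP-1 element TGANTCA, and no match found in the receptors' windows overlaps another. These occur in 7.25%, 2.98%, 7.02% and 6.75% of 32851 windows of the same length. The Cx3cr1 window holds none of the 4, which says only that these letters are not in those 250 bases. Among the other receptors, the Ccr1 window holds an NF-kappaB match (GGGAGGCTCC, 74 to 65 bases before the start), and the Ccr3 window holds an NF-kappaB match and an AP-1 match. A match describes the letters and does not show that a factor binds there.

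As a check of the genotype, Sting1 read 246, 336 and 327 signal units on the 3 knockout arrays, below every wild-type array (646 to 2260). Under DNA the fall relative to wild type was -2.17 ± 0.35 in log2 (mean and SE, 3 arrays a group, limma adjusted p = 0.0016). Of the dendritic cell markers, Itgax read 4110 to 6170 and the class II chain H2-Aa 20400 to 35200. Flt3 stayed below the median of every array. Zbtb46 (54.1 to 226), Dpp4 (36.8 to 222) and Cd209a (17.6 to 184) were also dim. Zbtb46 and Dpp4 exceeded the median on 7 of 9 arrays, and Cd209a on 4. Csf1r, a macrophage gene, read 18300 to 24900, so the cultures also carried macrophage transcripts. Of the neutrophil markers, S100a8 read 10600 to 35700 and Mmp8 6840 to 13700, but Elane 13.9 to 210. The summed neutrophil markers read 53100 to 99200 on the arrays of number 1 and 30900 to 54300 on the others. The T cell genes Cd3e, Cd3g and Cd3d and the natural killer gene Ncr1 were below the median on all 9 arrays. Cd247, a signalling chain of T and natural killer cells and the other measured marker of these cells, was above the median on 3 of 9 arrays (mean 47.4 in media, 128 in wild type with DNA and 46.2 in the knockout) and was called higher with DNA and lower in the knockout. Arrays of number 1 stood apart: the summed eosinophil markers read 4170 to 12200 on them and 981 to 3140 on the others, the macrophage markers 110000 to 144000 against 69300 to 96700, and the dendritic cell markers 97900 to 117000 against 69900 to 96300. The spiked hybridisation control BioB read 406 to 552 on number 1 and 115 to 189 on the other arrays. Number 1 holds 1 array of each group, so differences within each number are given below.

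With tumor DNA the transcripts of Ccrl2 and Ccr7 rose in wild-type cells relative to media and that of Cx3cr1 fell. Cells lacking STING had less Ccrl2 transcript than the wild type under the same stimulus. The receptors of inflammatory recruitment, Ccr1 and Ccr2, and the CXC receptors Cxcr4 and Cxcr2 did not pass the test in any of the 3 comparisons when the replicate number was left out of the model. With the number in the model 6 of the 7 receptors tested passed with DNA in wild type, now also Ccr1, Ccr2 and Cxcr4, beside 44.8% of all genes. In the knockout under DNA 4 of 7 then passed, with Cx3cr1 and Cxcr4 higher and Ccr1 lower besides Ccrl2, against 43%. Without the number in the model, of the 7 receptors that passed the filter on low signals, 3 were called in wild-type cells given DNA, 2 higher and 1 lower. A call is a limma adjusted p below 0.05, over 12586 genes. The 7 include Cxcr2, whose signals cannot be told from background. Over all genes 33.6% were called, 9.94% higher and 23.6% lower. In the knockout against wild type under DNA, again without the number, 1 of 7 was called, lower, against 31.5% of all genes (21.8% higher, 9.73% lower). The median log2 difference of the 7 receptors was 0.03 with DNA in wild type, beside -0.20 over all genes, and -0.25 in the knockout against wild type under DNA, beside 0.20. The shift over all genes moved with the scaling: for DNA in wild type the split was 1251 higher and 2973 lower as deposited, 1369 and 2202 with quantile normalization (median gene -0.10), and 2038 and 1451 with median centring (0.11). For the knockout under DNA it was 2746 and 1224 as deposited, 2142 and 1360 with quantile normalization (median gene 0.10), and 1456 and 1805 with median centring (-0.06). These are whole cultures, in which fewer cells of a type and less RNA per cell cannot be told apart.

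**Figure D1:**
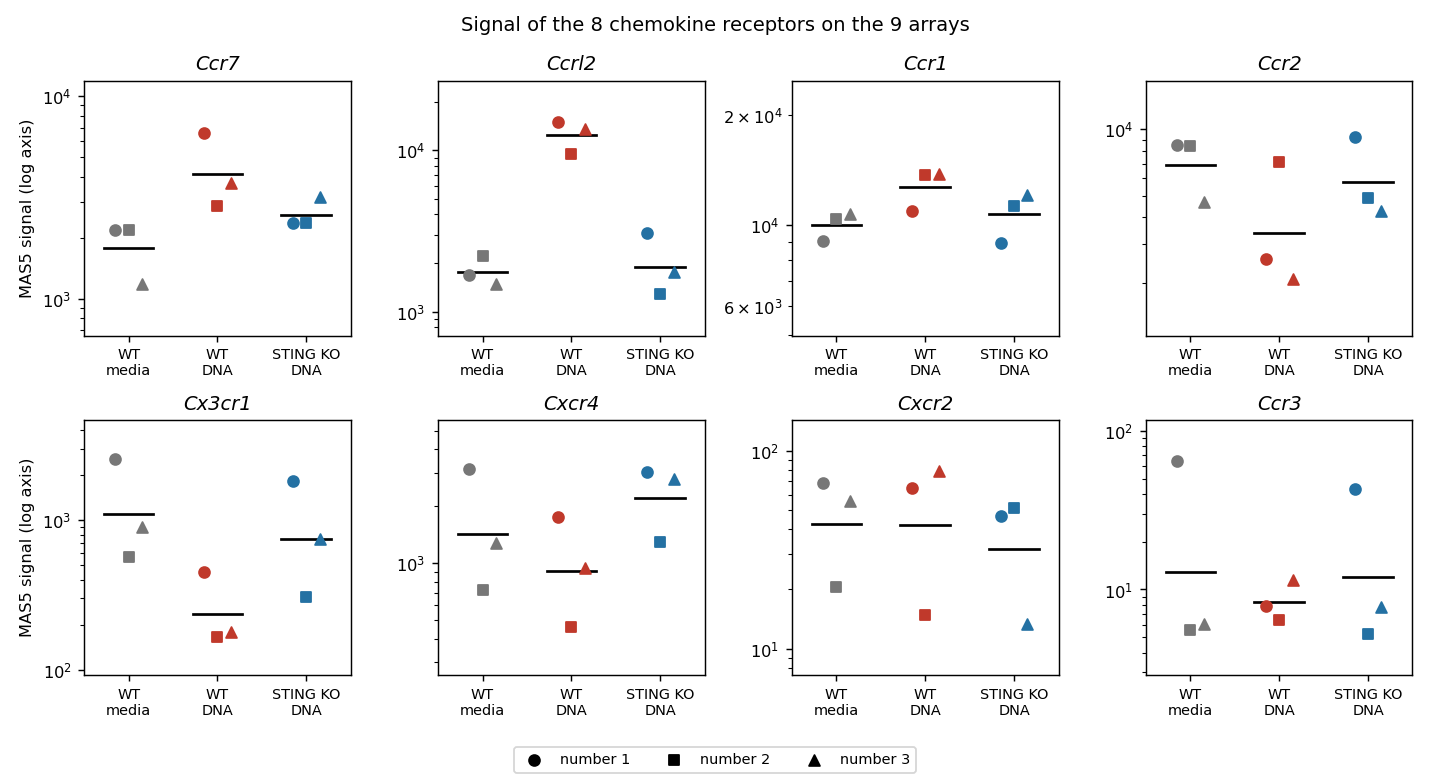
Signal of each receptor on the 9 arrays, 1 panel per gene (the probe set with the highest mean), on a log axis in MAS5 signal units. Points are single arrays, marker shapes give the replicate number, colours the group, and bars the geometric mean of a group; the Ccrl2 arrays of DNA-treated wild-type cells (9410 to 14900) lie above all 6 others (1280 to 3070), and the Cx3cr1 arrays of number 1 are the highest of their group in all 3 groups.

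Ccr7, the receptor for the lymph node chemokines CCL19 and CCL21, read 2190, 2180 and 1180 signal units in media, 6600, 2850 and 3710 in DNA-treated wild-type cells, and 2360, 2350 and 3160 in knockout cells with DNA, for numbers 1 to 3. Every DNA-treated wild-type array lay above every media array, and the knockout arrays also lay above the media arrays, but the highest knockout array passed the lowest DNA-treated wild-type array. With DNA the wild type rose by 1.20 ± 0.33 on the log2 scale (2.30-fold, SE, n = 3 per group, limma adjusted p = 0.019), with 1.59, 0.38 and 1.64 within the 3 numbers. The smallest of these, in number 2, is where the DNA array was lowest. The call ended without wild-type DNA array 1 (adjusted p = 0.058), without media array 3 (0.063), and without all arrays of number 1 (0.055) or number 3 (0.13), over a range of 0.0043 to 0.13 across all alternatives. Without STING the difference under DNA was -0.66 ± 0.33 (adjusted p = 0.15), with a 95% interval from -1.39 to 0.07 and within-number values of -1.48, -0.28 and -0.23. Knockout cells with DNA differed from wild-type media by 0.54 ± 0.33 (adjusted p = 0.80), where most of the difference came from number 3 (1.41, against 0.11 and 0.10).

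Ccrl2, the chemerin-binding receptor, read 1700, 2210 and 1480 in media, 14900, 9410 and 13500 in DNA-treated wild-type cells, and 3070, 1280 and 1760 in the knockout with DNA. The 3 DNA-treated wild-type arrays stood above all other arrays, and the media and knockout arrays overlapped. The rise in wild type was 2.79 ± 0.31 on the log2 scale (6.92-fold, limma adjusted p = 0.00041), and 3.12, 2.08 and 3.18 within the numbers. Knockout cells were lower than wild type under DNA by a log2 difference of -2.69 ± 0.31 (6.44-fold, adjusted p = 0.00034), with -2.27, -2.86 and -2.93 within the numbers. Ccrl2 was called in both comparisons under each of the alternatives tried, with adjusted p of at most 0.028 and 0.026. Between knockout cells with DNA and wild-type media the difference was 0.10 ± 0.31 (adjusted p = 0.98, 95% interval -0.58 to 0.79), with 0.84, -0.78 and 0.25 within the numbers, so its sign was not settled.

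**Figure D2:**
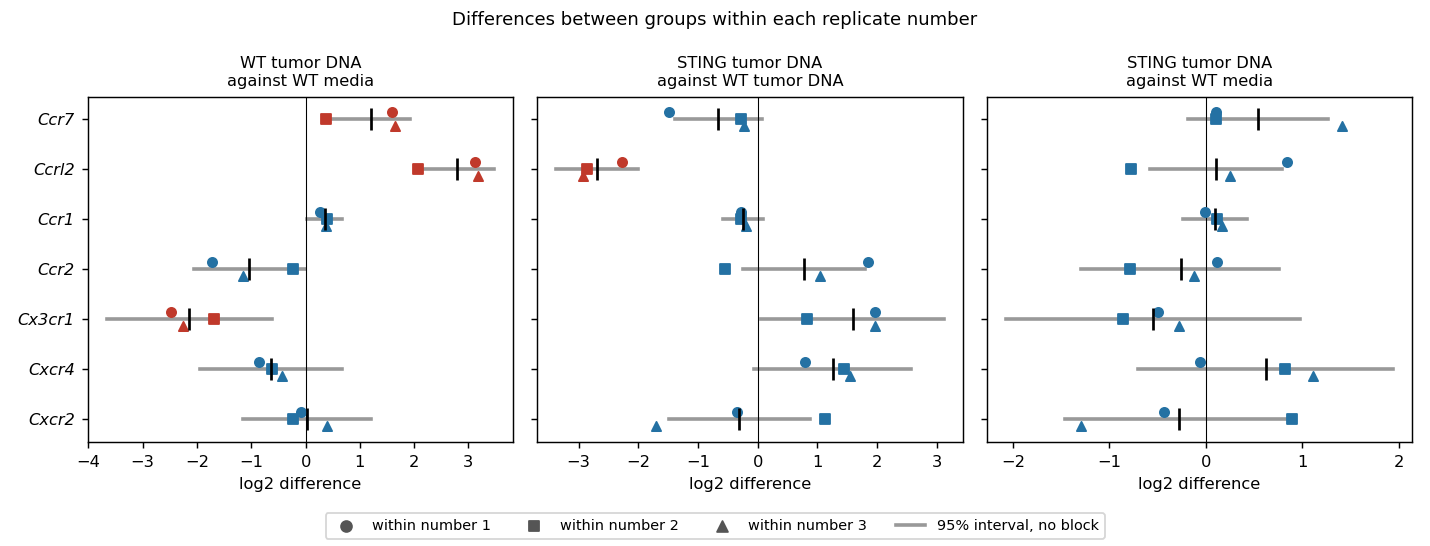
Log2 differences for the 7 tested receptors in the 3 comparisons. Points are differences within replicate number 1 (circle), 2 (square) and 3 (triangle), the black tick is the mean difference and the grey line its 95% interval from the fit without a replicate block; red marks an adjusted p below 0.05, which Ccr7, Ccrl2 and Cx3cr1 reached with DNA in wild type and Ccrl2 in the knockout under DNA.

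Cx3cr1, the fractalkine receptor, was the receptor that fell with DNA. Its brighter probe set read 2570, 570 and 906 in media, 448, 167 and 178 in DNA-treated wild-type cells, and 1810, 308 and 744 in knockout cells with DNA. In each number the order was media, then knockout with DNA, then wild type with DNA. Number 1 was the highest of each group, which widened the spread between arrays of a group. The log2 difference with DNA in wild type was -2.14 ± 0.68 (4.39-fold lower, limma adjusted p = 0.036), and -2.48, -1.68 and -2.25 within the numbers. With the replicate number as a block the error fell to 0.22 and the adjusted p to 0.00021. Without the block the call ended under quantile normalization (-1.91, adjusted p = 0.079), median centring (-1.83, 0.079) and no variance trend (0.051), over a range of 0.016 to 0.21. It also ended when any of these was left out: media array 1 (0.12), media array 3 (0.065), wild-type DNA array 2 (0.10), wild-type DNA array 3 (0.10), knockout array 3 (0.053) and all arrays of number 3 (0.21). With the block it was called in all 7 fits run.

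Under DNA the knockout had more Cx3cr1 transcript than wild type in each number, by 1.97, 0.83 and 1.97 on the log2 scale. The mean of 1.59 ± 0.68 missed the threshold without the block (adjusted p = 0.10) and passed it with the block (0.00063). Against wild-type media the knockout with DNA differed by -0.55 ± 0.68 (adjusted p = 0.96). The dimmer Cx3cr1 probe set read 185, 93.4 and 69.1 in media, 64.5, 38.8 and 46.0 in DNA-treated wild-type cells, and 152, 62.8 and 62.8 in the knockout. Its fall with DNA had the same direction in each number (-1.32, -1.0 and -0.46), at -0.92 ± 0.40 in all (adjusted p = 0.11, and 0.018 with the block). It exceeded the array median on 6 of 9 arrays, and signals this low understate a change. The summed macrophage markers, other genes of the cells that carry this receptor, read 74200 to 122000 in media and 86600 to 144000 in DNA-treated wild-type cells. Of the 9 tested, 2 macrophage markers were higher with DNA and 0 lower, and with the block 3 were higher and 3 lower. Over all genes 9.94% were called higher and 23.6% lower in this comparison, and 13.2% and 31.6% with the block. The mean signals of the macrophage markers went both ways from media to wild type with DNA: Fcgr1 read 3520 and 13800, but Adgre1 6220 and 4590. The classical monocyte markers summed to 44700 to 45100 in media and 45900 to 55300 in DNA-treated wild-type cells, and of the 4 tested 2 were higher with DNA and 0 lower, with and without the block. Here Vcan had a mean of 1530 in media and 7160 with DNA, but F13a1 one of 2780 and 1960. The plasmacytoid dendritic cell markers summed to 5660 to 8310 and then 19300 to 24800. Of the 6 tested 2 were higher and 0 lower, and 3 and 0 with the block. Most of the summed signal came from Bst2 (mean 4780, then 17000) and Tcf4 (1780, then 4230). The means of Siglech (59.5, then 30.2) and Klk1 (175, then 96.8) went the other way. The part of these 3 marker lists in the Cx3cr1 values was not tested.

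Ccr1, a receptor for CCL3, CCL5 and other inflammatory chemokines, read 9020, 10400 and 10700 in media, 10900, 13700 and 13800 in DNA-treated wild-type cells, and 8950, 11300 and 12100 in knockout cells with DNA. The DNA-treated wild-type arrays all exceeded the media arrays, by a small and even step of 0.27, 0.40 and 0.37 within the numbers. The mean of 0.35 ± 0.15 had a limma adjusted p of 0.10, which became 0.011 with the block. In the knockout against wild type under DNA the difference was -0.25 ± 0.15 (adjusted p = 0.23, and 0.042 with the block), with -0.28, -0.28 and -0.20 within the numbers. The other Ccr1 probe set moved unevenly with DNA, by -0.56, 0.58 and -0.22 (mean -0.07 ± 0.39, adjusted p = 0.92). Averaging the 2 probe sets gave 0.14 (adjusted p = 0.72), and quantile normalization gave 0.08 (0.74, and 0.49 with the block). With median centring Ccr1 was called in both comparisons, at 0.65 (adjusted p = 0.012) and -0.51 (0.034), so its call depended on the scaling and the probe set.

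Ccr2, the receptor that brings monocytes out of the bone marrow toward CCL2, read 8500, 8390 and 4660 in media, 2570, 7140 and 2080 in DNA-treated wild-type cells, and 9220, 4860 and 4280 in knockout cells with DNA. Wild-type DNA arrays 1 and 3 were the lowest of the 9, and array 2 lay among the media arrays. The log2 difference with DNA in wild type was -1.04 ± 0.46 (limma adjusted p = 0.11, and 0.037 with the block), and -1.72, -0.23 and -1.16 within the numbers. Without wild-type DNA array 2 it was -1.58 (adjusted p = 0.013). In the knockout against wild type under DNA the value was 0.77 ± 0.46 (adjusted p = 0.23, and 0.10 with the block), and its sign differed between numbers (1.84, -0.55 and 1.04). Without wild-type DNA array 2 it was 1.31 (adjusted p = 0.026). The other 3 Ccr2 probe sets differed with DNA by -0.60 ± 0.55, -0.76 ± 0.29 and -0.73 ± 0.44, with adjusted p of 0.45, 0.073 and 0.24. On each of the 4 probe sets array 2 was the highest of the DNA-treated wild-type arrays.

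**Figure D3:**
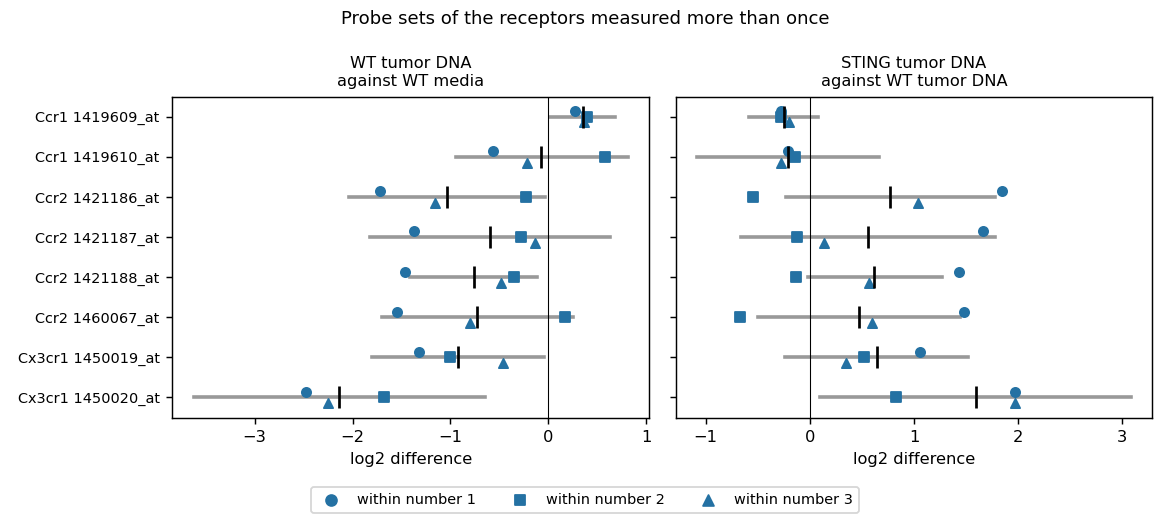
Log2 differences of each probe set of Ccr1, Ccr2 and Cx3cr1, the receptors measured by more than 1 probe set, with DNA in wild type (left) and in the knockout against wild type under DNA (right). Points are differences within numbers 1, 2 and 3, the tick is the mean and the grey line the 95% interval; the 4 Ccr2 probe sets have means between -1.04 and -0.60 with DNA, and the 2 Ccr1 probe sets differ in sign.

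Ccr3, the eotaxin receptor of eosinophils, was near the floor of the array. It read 64.6, 5.55 and 6.06 in media, 7.91, 6.43 and 11.4 in DNA-treated wild-type cells, and 43.2, 5.21 and 7.71 in knockout cells with DNA, and exceeded the array median on 1 of 9 arrays. It did not pass the filter on low signals and was left out of the counts above. In a fit without the filter it differed by -0.46 ± 0.53 with DNA in wild type (limma adjusted p = 0.63), and without the arrays of number 1 by 0.18. Its 2 highest arrays were both of number 1, media (64.6) and knockout with DNA (43.2), where the summed eosinophil markers read 8460 and 4170. The remaining array of number 1, wild type with DNA, had the highest eosinophil sum of all arrays (12200) but read 7.91 for Ccr3. The part of eosinophils in the Ccr3 values was not tested.

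Cxcr4, the receptor for CXCL12 that keeps cells in the bone marrow, read 3160, 720 and 1280 in media, 1750, 464 and 945 in DNA-treated wild-type cells, and 3030, 1290 and 2780 in knockout cells with DNA. The 3 groups overlapped, because the arrays of number 1 were high and those of number 2 low throughout. Within the numbers, however, knockout cells with DNA were above wild-type cells with DNA by 0.79, 1.44 and 1.54 on the log2 scale. The mean of 1.26 ± 0.59 had a limma adjusted p of 0.13 without the block and 0.0012 with it, where the error was 0.20. With DNA the wild type was below media by -0.85, -0.62 and -0.43 within the numbers, a mean of -0.63 ± 0.59 (adjusted p = 0.44, and 0.031 with the block). Knockout cells with DNA differed from wild-type media by 0.62 ± 0.59 (adjusted p = 0.93), and with the block but without the arrays of number 1 by 0.96 (adjusted p = 0.028).

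Cxcr2, a receptor for neutrophil attractants, read 68.9, 20.5 and 55.7 in media, 64.5, 14.9 and 78.9 in DNA-treated wild-type cells, and 47.0, 51.6 and 13.3 in knockout cells with DNA. It exceeded the array median on 3 of 9 arrays, so these signals cannot be told from background. Its differences of 0.03 ± 0.53 with DNA and -0.31 ± 0.53 in the knockout under DNA were smaller than their errors (limma adjusted p = 0.97 and 0.70), with 95% intervals of -1.15 to 1.21 and -1.49 to 0.87.

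The replicate number carried a large part of the spread for some receptors. Of the variance of the log2 signal over the 9 arrays, the number took 62.3% for Cxcr4, 49.9% for Ccr1, 44.1% for Cx3cr1 and 31.2% for Ccr2, but 9.88% for Ccr7 and 2.62% for Ccrl2. The group took 92.5% for Ccrl2, 60.8% for Ccr7, 52.7% for Cx3cr1 and 32.4% for Cxcr4. For Ccr7 and Ccr2, 29.4% and 31.9% belonged to neither, whereas for Cx3cr1 this remainder was 3.28%. With the number as a block, 6 of the 7 receptors were called with DNA in wild type, 3 higher (Ccr1, Ccr7, Ccrl2) and 3 lower (Ccr2, Cx3cr1, Cxcr4), against 44.8% of all genes (13.2% higher, 31.6% lower). Over the 7 fits with the block this count ran from 2 to 6 and was 2 (Ccrl2 and Cx3cr1) without replicate 3, where Ccr7 had an adjusted p of 0.056; Ccr1 and Ccr2 were each called in 4 of the 7 and Cxcr4 in 3. In the knockout against wild type under DNA the block gave 4 of 7, Cx3cr1 and Cxcr4 higher and Ccr1 and Ccrl2 lower, against 43% of all genes (29.9% higher, 13% lower). Over the 7 fits with the block, Ccrl2, Cx3cr1 and Cxcr4 were called in all 7 in this comparison. Ccr1 was called in 3, with values from -0.51 to 0, and Ccr2 and Ccr7 in 1 each. Groups did not overlap for 4 of 7 receptors with DNA in wild type, beside 46.4% of all genes, and for 1 of 7 in the knockout under DNA, beside 46%.

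None of the 7 receptors was called between knockout cells with DNA and wild-type cells in media (limma, 0 with and 0 without the block, and 0 at an unadjusted p below 0.05). Over all genes 0.429% were called, and 1.4% with the block. Ccr7 was the 1 receptor whose arrays did not overlap in this comparison, as was so for 13.8% of all genes. The largest differences were 0.62 for Cxcr4, -0.55 for Cx3cr1 and 0.54 for Ccr7. The 3 comparisons share arrays, so their values for a receptor are not independent.

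Genes whose log2 signal followed each receptor most closely over the 9 arrays are given as a description, since the points share groups and numbers. For Ccrl2 these were Myd88, the adaptor of Toll-like receptors (Pearson r = 0.991), Gtpbp2 (0.988) and Cd40, a costimulatory receptor (0.986). For Ccr7 they were the integrin chain Itgb8 (r = 0.968), the nuclear receptor Nr4a3 (0.956) and Suco (0.952). For Cx3cr1 they were the integrin chain Itgb5 (r = 0.987), the cathepsin Ctsh (0.986) and the ATP-gated channel P2rx7 (0.973). Cxcr4 ran with Plxnc1, a semaphorin receptor (r = 0.962), Rragd (0.951) and Foxj3 (0.941). Ccr1 ran with Gprc5a (0.974), Pgm1 (0.973) and Ap3s1 (0.960), and Ccr2 with Phka2 (0.986), Bcas3 (0.964) and Sdhb (0.952). For Cxcr2, which was near background, the closest were Zbtb7b (0.918), Homer2 (0.913) and Sema4g (0.903).

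Among the ligands of these receptors, those that passed the test with DNA rose. Of 23 ligands 19 were tested. With DNA in wild type 5 rose and 0 fell, beside 9.94% higher and 23.6% lower over all genes. The median log2 difference of the ligands was 0.77, beside -0.20 over all genes. With the block 9 rose and 0 fell, beside 13.2% and 31.6% of all genes. In the knockout against wild type under DNA, 4 were lower and 0 higher (median -0.20), beside 9.73% and 21.8% of all genes (median 0.20). Ccl12, a monocyte attractant that acts on CCR2, read 528 to 2400 in media, 10400 to 15100 in DNA-treated wild-type cells and 399 to 776 in the knockout with DNA. It rose by 3.77 ± 0.49 (limma adjusted p = 0.00079) and was lower in the knockout by a difference of -4.47 ± 0.49 (adjusted p = 0.00030). Ccl8, another CC chemokine, read 66.3 to 107, then 677 to 2170, then 28.4 to 85.4, which are differences of 3.35 ± 0.45 (adjusted p = 0.00090) and -3.85 ± 0.45 (0.00040). The knockout signals of Ccl8 reach the array medians of 53.7 to 70.9, so these sizes depend on the offset added before the logarithm. Ccl5, which binds CCR1 and CCR3, read 4270 to 10000, then 22200 to 28300, then 5440 to 10300. Its differences were 1.90 ± 0.31 (adjusted p = 0.0020) and -1.63 ± 0.31 (0.0034), and the call in the knockout ended without the arrays of number 3 (0.060). Chosen after their values were seen, because they are the ligands of the receptors that fell with DNA, with or without the block, Ccl7, which acts on CCR2, rose by 3.21 ± 0.89 (adjusted p = 0.021), Ccl2, the main ligand of CCR2, differed by 1.86 ± 0.87 (0.13, and 0.012 with the block), Cx3cl1 by 0.61 ± 0.23 (0.063, and 0.015 with the block) and Cxcl12 by -0.19 ± 0.86 (0.89). In the knockout under DNA the values were -2.12 ± 0.89 for Ccl7 (adjusted p = 0.099, and 0.0030 with the block), -1.14 ± 0.87 for Ccl2 (0.35, and 0.084 with the block), -0.73 ± 0.23 for Cx3cl1 (0.034) and 1.01 ± 0.86 for Cxcl12 (0.41). Ccl19 and Ccl21a, the ligands of CCR7, were not analysed here.

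**Figure D4:**
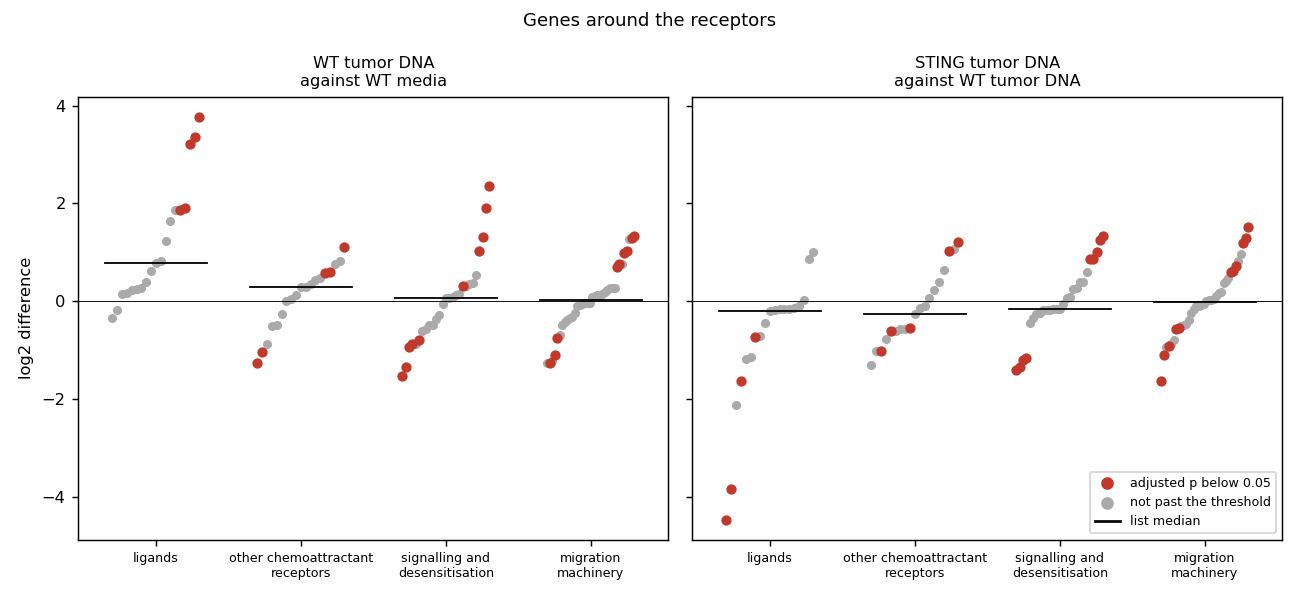
Log2 differences of the tested genes of 4 lists around the receptors, with DNA in wild type (left) and in the knockout against wild type under DNA (right). Each point is 1 gene, ordered by value within its list, red marks an adjusted p below 0.05 and the bar is the list's median, which is 0.77 for the 19 ligands on the left and lies between -0.26 and 0.28 for each of the other lists on both sides.

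Other receptors for attractants went both ways. Of 27 in the list 19 were tested. With DNA in wild type 3 rose and 2 fell (median 0.28), beside 9.94% and 23.6% of all genes (median -0.20). In the knockout under DNA 2 were higher and 3 lower (median -0.26), beside 21.8% and 9.73% of all genes (median 0.20). S1pr2, a sphingosine phosphate receptor that restrains migration, read 625 to 777 in media, 1210 to 1700 in DNA-treated wild-type cells and 531 to 1060 in the knockout. Its differences were 1.11 ± 0.25 (limma adjusted p = 0.0081) and -1.02 ± 0.25 (0.012). Fpr2, a formyl peptide receptor, rose by 0.57 ± 0.13 (adjusted p = 0.010) and was lower in the knockout by a difference of -0.61 ± 0.13 (0.0074). Ltb4r1, the leukotriene B4 receptor, read 787 to 1020, then 368 to 468, then 609 to 1320, which are differences of -1.04 ± 0.26 (adjusted p = 0.013) and 1.03 ± 0.26 (0.014). All 6 of these calls ended without the arrays of number 3, at adjusted p of up to 0.13, those of S1pr2 and the knockout call of Ltb4r1 also without number 2, and those of Fpr2 with quantile normalization and the call with DNA also without number 1.

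Genes that act behind the receptors were called in both directions. Of 28 genes of receptor signalling and desensitisation 27 were tested, 5 rose with DNA in wild type and 5 fell (median 0.06), and in the knockout under DNA 5 were higher and 4 lower (median -0.16). With the block these were 8 and 9, and 8 and 5, beside 44.8% and 43% of all genes called in the same comparisons. Over all 4 lists 30 genes of 101 were called with DNA in wild type (19 higher, 11 lower), beside 33.6% of all genes, and 29 in the knockout under DNA (13 higher, 16 lower), beside 31.5%. Median centring moved these splits to 34 higher and 7 lower, and to 7 higher and 23 lower. Grk6, a kinase that phosphorylates occupied receptors, read 1330 to 1520 in media, 491 to 699 in DNA-treated wild-type cells and 1370 to 1490 in the knockout with DNA. The differences were -1.34 ± 0.17 (limma adjusted p = 0.00062) and 1.33 ± 0.17 (0.00052). Arrb1, one of the arrestins that uncouple receptors from G proteins, read 1520 to 2060, then 454 to 711, then 1340 to 1400, which are differences of -1.54 ± 0.19 (adjusted p = 0.00067) and 1.24 ± 0.19 (0.0014). The other arrestin, Arrb2, was higher in the knockout by 0.86 ± 0.17 (adjusted p = 0.0039), a call that ended without the arrays of number 3 (0.084). Rgs1, which shortens G protein signals and so dampens chemokine responses, went the other way. It read 1350 to 3640 in media, 7740 to 14900 in DNA-treated wild-type cells and 3590 to 5450 in the knockout, and rose with DNA by 2.35 ± 0.35 (adjusted p = 0.0014).

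The list of genes for dendritic cell movement held adhesion, matrix, actin and prostaglandin receptor genes, of which 36 of 38 were tested. With DNA in wild type 6 rose and 4 fell (median 0.03), and 9 rose and 9 fell with the block. In the knockout under DNA 6 were higher and 5 lower (median -0.02), and 8 and 7 with the block. Over all genes 33.6% and 31.5% were called in these comparisons, and 44.8% and 43% with the block. Marcksl1, an actin-linked membrane protein, read 10400 to 12600 in media, 25900 to 33600 in DNA-treated wild-type cells and 7850 to 10600 in the knockout. Its differences were 1.34 ± 0.15 (limma adjusted p = 0.00042) and -1.63 ± 0.15 (0.00012). Cd47, a surface protein that interacts with integrins, read 8120 to 9990, then 16000 to 19000, then 8460 to 10200, at 0.98 ± 0.12 (adjusted p = 0.00071) and -0.91 ± 0.12 (0.00077). Ptger4, the EP4 receptor for prostaglandin E2 through which dendritic cell migration is promoted, fell. It read 4110 to 4910 in media, 1670 to 2320 in DNA-treated wild-type cells and 3610 to 5450 in the knockout, which are differences of -1.26 ± 0.18 (adjusted p = 0.0013) and 1.18 ± 0.18 (0.0014). Other probe sets of S1pr2, Grk6, Arrb2, Cd47, Marcksl1 and Ptger4 had the same sign as the ones given, in both comparisons. Not all passed in a limma fit of every probe set without the filter. A probe set of Grk6 (adjusted p = 0.11 and 0.074) and one of Cd47 (0.30 and 0.17) missed the threshold in both comparisons. Another of Cd47 (0.12) and that of S1pr2 (0.055) missed it in the knockout under DNA. Between knockout cells with DNA and wild-type media, 0 genes of the 4 lists were called, and 2 with the block, beside 0.429% and 1.4% of all genes.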

How the data were processed

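Messenger RNA was measured on 9 arrays in 3 groups of 3. The deposited values are linear signal intensities made by the authors with MAS5, per the submitters' processing notes. Neither a MAS5 version nor a genome build is given in the sources used here. No detection calls were used. The table held 45101 probe sets, of which 64 were controls, and of the others 34945 carried 1 gene symbol, 932 several and 9160 none in the platform annotation.

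Signals were analysed as log2(signal + 16), which understates the change of low signals. A filter at the 40th percentile of the mean (5.67 in log2) left 27022 probe sets, and the one with the highest mean stood for a gene, giving 12586 genes, among them 7 of the 8 receptors (12 of 13 probe sets). Linear models of all 9 arrays came from limma 3.58.1 under R 4.3.3 (lmFit and eBayes, with the variance following intensity), and 2-sided p-values were adjusted by Benjamini-Hochberg over all genes of a comparison. The fit was tested on simulated data with noise drawn independently for each array. The simulation held no deviation shared by arrays of the same number, so it does not cover that part of the spread. Precision is limited by the number of arrays.

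The receptors and the gene lists were chosen with earlier results of these data known. Named besides the receptors and Sting1 are, for each list and comparison, the 3 called genes with the smallest adjusted p, and for each tested receptor the 3 genes with the highest Pearson r; others are said to be chosen after their values were seen.

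Arrays of the same number, taken from the sample titles, deviated together. Residuals from the group means correlated at 0.17 to 0.49 over 9 pairs of the same number. The range was -0.42 to 0.14 over 18 pairs that differed in number and group, and -0.75 to -0.16 over 9 pairs of the same group. Residuals cancel out within a group, which lowers the values between numbers, so these ranges are not independent. For all 9 arrays the best partner had the same number. The number was therefore taken to pair the samples, and the blocked value stands beside a result whose call it changes. Alternatives were other offsets, filters, scalings, probe set rules and variance models, the block, and leaving out arrays. The combinations of the block with another choice were added after the data had been seen.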

Additional observations from a re-analysis of the deposited data

How the results depend on the processing

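Ccrl2 kept its direction and its call with DNA in wild type and in the knockout under DNA in every alternative run. The number of receptors called with DNA in wild type (3) was 6 with the replicate block, 6 with the block and every probe set tested on its own, 5 with the block without replicate 1 and 2 with the block without replicate 3 (2 to 6 over the 7 fits with the block); it was 1 to 3 with 1 array left out and 1 to 3 with 1 replicate number left out. For the knockout under DNA (1) it was 2 with median centring, 4 with the block, 3 with the block and quantile normalization, 5 with the block and median centring, 4 with the block and every probe set, and 3, 4 and 3 with the block without replicate 1, 2 and 3; it was 1 to 2 with 1 array and 1 to 2 with 1 replicate number left out. In the block with median centring Ccr7 was called lower in the knockout under DNA (-0.92, adjusted p = 0.039). Against wild-type media (0) it was 1 with the block without replicate 1. Genes called in the 4 lists numbered 30, 29 and 0 in the 3 comparisons. With median centring they were 41 (34 higher, 7 lower, against 19 and 11 as deposited), 30 (7 higher, 23 lower, against 13 and 16) and 0. With the block they were 50, 41 and 2, with 1 replicate number left out 11 to 26 and 10 to 34 in the first and second comparison (lowest without number 3 in both), and with 1 array left out 24 to 32 and 20 to 30. Every reversed value belongs to a difference that was not called. Cxcr2 with DNA in wild type was -0.02 with an offset of 0, and Ccr1 in the knockout against media was -0.09 with the mean of its probe sets. Leaving out arrays or numbers, Cxcr2 ranged from -0.34 to 0.53 with DNA in wild type, from -1.02 to 0.39 in the knockout under DNA and from -0.86 to 0.23 against media, and had no value without replicate 1, where it failed the filter. Ccr3 ranged from -0.85 to 0.18, -0.14 to 0.61 and -0.59 to 0.51. Against media Ccrl2 ranged from -0.27 to 0.55 and Cx3cr1 from -1.17 to 0.07. In the block without replicate 1, Ccr3 was 0.18, -0.14 and 0.04 and Ccrl2 against media -0.27, and in the block without replicate 3, Cxcr2 was -0.16, 0.39 and 0.23. The cause was not tested. Over all genes and all arrays, 4224 were called with DNA in wild type and 3970 in the knockout under DNA. Without number 1, 2 or 3 these were 3012, 2406 or 1489, and 3204, 2255 or 1368. With the block they were 5634 and 5407, and with median centring 3489 and 3261. Against media there were 54 with all arrays and 70, 7 or 4 without number 1, 2 or 3. That number was 176 with the block, 30 with only the 2 groups compared, and 18 to 129 with 1 array left out. Signals of Cxcr2 and Ccr3 cannot be told from background.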

Other observations

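The genes beside the receptors on the chromosome, in the order of the RefSeq gene table for GRCm38.p6, were chosen for mention after their values were seen. Next to Ccr7, which rose with DNA, Tns4 fell, with a log2 difference of -1.72 (limma adjusted p = 0.0035), and was higher in the knockout under DNA by 2.07 (0.0013). Beyond Tns4, Igfbp4 also fell with DNA, at -1.73 (0.0084), with 0.42 (0.45) in the knockout under DNA, and Smarce1 on the other side of Ccr7 differed by 0.17 (0.58). Near Cx3cr1, which fell, Csrnp1 rose by 2.87 (adjusted p = 0.00040) and read less in the knockout, with -2.16 (0.00093) under DNA. Of the tested neighbours of Ccrl2, Ltf differed by 0.33 (0.82) and Lrrfip2 by 0.53 (0.090) with DNA.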
